A study of Mus musculus with 58 samples.

Results

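Gpr165, Il7r and Mycl were described here in microglia of mice that lack Sgsh, the lysosomal sulfohydrolase that helps degrade heparan sulfate and whose loss causes Sanfilippo syndrome. The 3 genes, of 24940 listed, were chosen by symbol because their RNA was among the most reduced in SgshKO microglia at 4 and 8 months, so those differences are given as a description and were not tested. Among the 8808 genes with a mean of at least 10 CPM (the count scaled to library size) over the age series, ordered by log2 fold change, Gpr165, Mycl and Il7r took places 1, 2 and 3 from the lowest at 4 months. At 8 months Gpr165, Il7r and Mycl took places 1, 2 and 4, with Efnb2 at place 3. Without that floor other genes came ahead of them: Gpr165, Mycl and Il7r stood at places 118, 172 and 173 of 14309 at 4 months, where the 6 lowest genes had no counts in SgshKO and at most 4.92 CPM in WT. The order depends on that floor, which averages over both genotypes: Setbp1, at 31.8 CPM in WT and 0.763 CPM in SgshKO at 8 months (log2 fold change -5.43), lay below Il7r and Mycl and did not reach it. The 3 genes were therefore among the largest falls, but not the 3 largest at 8 months under either ordering.

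PolyA RNA of sorted mouse microglia (DAPI-, CD11b+, CD45low, CX3CR1+) was sequenced in 58 libraries of 13 groups, all from strain C57BL/6. The age series held WT and SgshKO mice at 3 weeks (3 and 4 libraries), 4 months (2 and 2) and 8 months (4 and 7). Other WT mice received PBS or an antisense oligonucleotide (ASO): the control named ntc, or a sequence directed at Mitf, at Tfeb or at Tfe3 (4 libraries each). The remaining set held SgshKO mice given ntc or the Mitf and Tfe3 ASOs together (8 libraries each). ASOs, short nucleic acids that lead to loss of the matching RNA, went into the cerebral ventricles as a single dose, and microglia were collected 14 days later; the age of these mice is not given in the sources used here. ASO titles also carry a grp number, 1 to 4 in WT and 1 or 2 in SgshKO, whose meaning is not stated. Nothing in the labels says that libraries are separate animals, so p-values measure only the spread between these samples.

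Total counts ran from 8191508 to 27106584 per library in the age series, 14372015 to 30378870 in WT ASO libraries and 12517838 to 30431437 in SgshKO ASO libraries. All 12 microglial markers were detected in every group, and their sum was lower in SgshKO without overlap at each age: 50476 to 54954 against 57374 to 58904 CPM at 3 weeks, 32209 to 37128 against 47723 to 52960 CPM at 4 months, and 35495 to 39568 against 43518 to 51867 CPM at 8 months. Sgsh RNA was still counted in SgshKO (14.9 to 23.4 CPM at 3 weeks, against 20.3 to 25.9 CPM in WT), so at that age its level did not separate the genotypes; how the deposited counts treat the mutated part of the gene is not given in the sources used here. The ASOs lowered their targets: Mitf from 43.7 to 1.58 CPM, Tfeb from 54.9 to 5.80 CPM and Tfe3 from 198 to 38.1 CPM in WT, each against ntc. In SgshKO the combination took Mitf from 72.4 to 15.3 CPM and Tfe3 from 170 to 80.4 CPM.

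Gpr165 encodes an orphan G-protein-coupled receptor, a membrane receptor with no agreed ligand. Il7r encodes the alpha chain of the interleukin-7 receptor, which pairs with the common gamma chain Il2rg to bind IL-7 and with Crlf2 to bind TSLP, and signals through the kinases Jak1 and Jak3 to the transcription factors Stat5a and Stat5b. It is best known from lymphocyte development and is also made by fetal macrophage precursors. Mycl encodes L-MYC, a member of the MYC family that binds E-box DNA as a dimer with Max. Mitf, Tfeb and Tfe3 are related basic helix-loop-helix factors that also bind E-boxes and drive lysosomal genes.

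In mm10 coordinates of the age-series files, Gpr165 spans chrX:96713468-96719388 on the plus strand, Il7r chr15:9506159-9529876 on the minus strand and Mycl chr4:122995931-123002480 on the plus strand. The 250 bases before each of these starts were searched for motifs because the 3 genes were low in the same libraries and lie on different chromosomes (RefSeq sequence, GRCm38.p6). The windows are chrX:96713218-96713467 for Gpr165, chr15:9529877-9530126 for Il7r and chr4:122995681-122995930 for Mycl. The RefSeq gene spans of Il7r and Mycl begin further upstream, and that of Gpr165 begins at the same base. All 250 bases of the Mycl window and the 65 bases of the Il7r window nearest the start lie within the RefSeq gene span, and 131 bases of the Mycl window are UTR in GENCODE, so no sequence of Mycl is shown. GENCODE exons, of any gene and on either strand, cover 27 bases of the Gpr165 window and 86 of the Il7r window. The Gpr165 window is shown whole, and for Il7r the 185 bases outside the RefSeq span, chr15:9529942-9530126, each 5′ to 3′ on the strand of the gene. Capitals mark every match, on either strand, to 5 motifs: the palindromic E-box CACGTG, its variant CATGTG, the ETS core GGAAGT, the TATA box TATAAA and the GC box GGGCGG.
Gpr165: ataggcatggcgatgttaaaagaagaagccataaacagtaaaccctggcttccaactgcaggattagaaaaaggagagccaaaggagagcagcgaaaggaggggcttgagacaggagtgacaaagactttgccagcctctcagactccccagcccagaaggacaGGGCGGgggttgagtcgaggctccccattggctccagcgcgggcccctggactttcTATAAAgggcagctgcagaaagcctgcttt
Il7r: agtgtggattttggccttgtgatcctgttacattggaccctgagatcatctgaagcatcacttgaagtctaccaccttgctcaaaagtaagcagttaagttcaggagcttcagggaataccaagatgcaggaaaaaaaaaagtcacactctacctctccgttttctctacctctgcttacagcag
TATAAA occurs in the Gpr165 and Mycl windows and in 12.4% of 32851 RefSeq promoter windows of this length. It lies 30 to 25 bases before the start of Gpr165 and 8 to 3 bases before that of Mycl. GGGCGG occurs in the same 2 windows and in 32.7% of all windows. The Il7r window holds GGAAGT, on the opposite strand and 49 to 44 bases before the start and so within the RefSeq gene span, as do 19.7% of all windows. CACGTG (6.02% of all windows) and CATGTG (12.3%) are in none of the 3 windows, which says only that these letters are not there. No 2 of the marked matches overlap. GC content was 54.4% for Gpr165, 44.0% for Il7r and 63.6% for Mycl, against a median of 52.4% over all windows.

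At 3 weeks, an age the choice of genes did not use, all 3 were already lower in SgshKO. Gpr165 stood at 22% of its WT mean, Il7r at 31.4% and Mycl at 32.4%. Gpr165 measured 651, 690 and 566 CPM in the 3 WT libraries and 132, 154, 140 and 134 CPM in the 4 SgshKO libraries. Il7r measured 76.1, 73.2 and 72.8 CPM in WT and 31.0, 25.8, 16 and 20.3 CPM in SgshKO. Mycl measured 65.2, 89.7 and 84.5 CPM in WT and 30.0, 23.1, 22.1 and 28.3 CPM in SgshKO. The genotypes did not overlap for any of the 3, which was true of 11.6% of all genes in the lower direction. By edgeR's quasi-likelihood test, adjusted over 14309 genes, Gpr165 fell by 2.18 ± 0.21 on the log2 scale (SE, adjusted p = 9.73e-08). Il7r fell by 1.66 ± 0.22 (adjusted p = 7.42e-06) and Mycl fell by 1.62 ± 0.27 (adjusted p = 0.000173) in the same test. All 3 passed, against 3.72% of all genes called lower at this age. All 3 calls held in each of the 9 other settings and each of the 7 fits without 1 library. Neutrophil markers summed to 1.68 to 7.16 CPM in WT and 1.74 to 31.5 CPM in SgshKO at this age, and all 7 libraries had Xist counts far above Ddx3y counts.

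**Figure D1:**
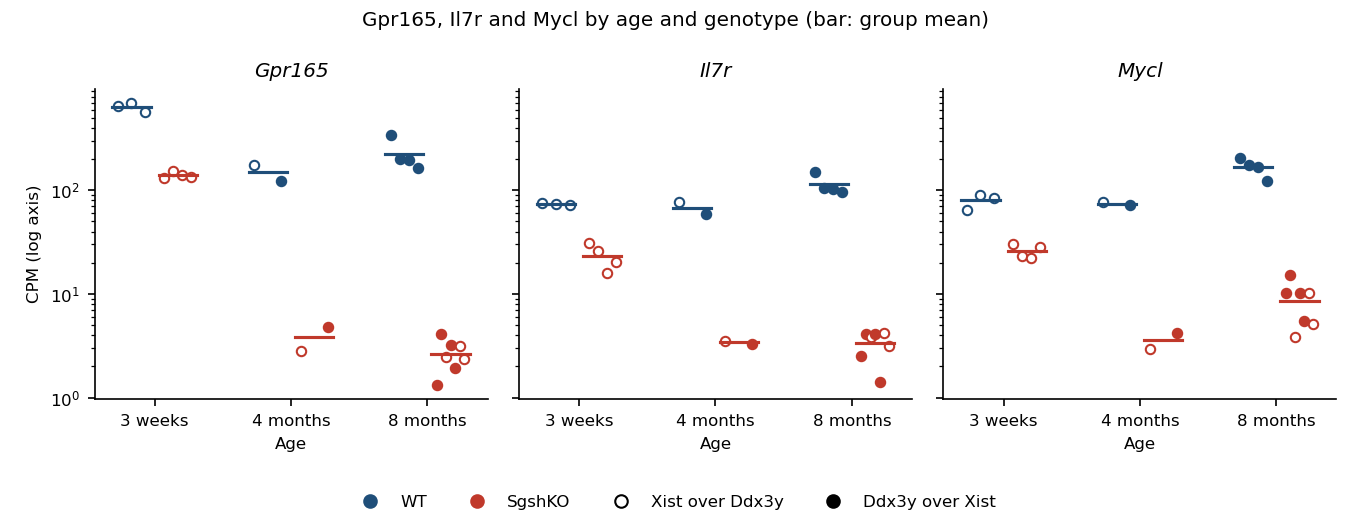
CPM of each gene (log axis) in every age-series library, WT in blue and SgshKO in red, with bars at group means; open symbols mark libraries with more Xist than Ddx3y counts. SgshKO lies below WT at each age, and the gap is wider at 4 and 8 months than at 3 weeks.

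At 4 and 8 months little of the 3 transcripts was left in SgshKO. Gpr165 was 175 and 123 CPM in WT and 2.81 and 4.81 CPM in SgshKO at 4 months, which is 2.56% of the WT mean (log2 fold change -5.24). At 8 months it was 341, 201, 196 and 163 CPM in WT, and from 1.33 through a median of 2.46 to 4.09 CPM in the 7 SgshKO libraries, 1.18% of the WT mean (-6.45). The lowest WT library thus held 123 CPM and the highest SgshKO library 4.81 CPM over both ages. These SgshKO levels rest on 23 to 67 counts per library.

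Il7r was 76.5 and 58.7 CPM in WT and 3.54 and 3.27 CPM in SgshKO at 4 months, 5.04% of WT (log2 fold change -4.31). At 8 months the 4 WT libraries held 149, 106, 103 and 96.5 CPM and the 7 SgshKO libraries 1.41 to 4.24 CPM with a median of 3.82 CPM, 2.93% of WT (-5.10). Mycl was 76.6 and 71.8 CPM in WT and 2.93 and 4.21 CPM in SgshKO at 4 months, 4.82% of WT (-4.34). At 8 months it was 205, 176, 166 and 122 CPM in WT and 3.85 to 15.2 CPM with a median of 10.1 CPM in SgshKO, 5.16% of WT (-4.28). No SgshKO library reached the lowest WT library of its age for any of the 3 genes. Over all genes 28.3% had SgshKO wholly below WT at 4 months, where each group has 2 libraries, and 11.2% did at 8 months; these contrasts chose the genes. Just outside the choice, with the 10 CPM floor, were Upk1b (log2 fold change -3.53) and Gp9 (-3.42) at 4 months, and Efnb2 (-4.89, ahead of Mycl) and Sema6d (-4.11) at 8 months.

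The courses with age differed among the 3 genes, and are given without a test since they use the libraries that chose the genes. In WT, Gpr165 went from a mean of 636 ± 63.3 CPM (SD, n = 3) at 3 weeks to 149 ± 37.1 CPM (n = 2) at 4 months and 225 ± 79.0 CPM (n = 4) at 8 months, so that the 8-month level was 35.4% of the first. WT Il7r was 74.0 ± 1.77, 67.6 ± 12.6 and 114 ± 23.8 CPM at the same ages, and WT Mycl 79.8 ± 12.9, 74.2 ± 3.40 and 167 ± 34.4 CPM. For Il7r and Mycl the 4-month WT libraries overlapped those at 3 weeks, and the 8-month libraries lay above both. The WT 3-week libraries all had Xist over Ddx3y and the WT 8-month libraries all the reverse, so between these ages age and sex cannot be told apart. The 4-month group held 1 library of each kind. Among WT libraries with Xist over Ddx3y, Gpr165 was 566 to 690 CPM at 3 weeks and 175 CPM at 4 months. Among those with Ddx3y over Xist, Il7r was 58.7 CPM at 4 months and 96.5 to 149 CPM at 8 months, and Mycl 71.8 and 122 to 205 CPM. A list of 13 genes that respond to cell dissociation also differed with age. In WT it summed to 5612 to 8726 CPM at 3 weeks, 20769 to 27302 CPM at 4 months and 9517 to 11655 CPM at 8 months. In SgshKO it was 5444 to 25778, 15600 to 18002 and 5496 to 9138 CPM, below WT without overlap at the 2 later ages. Its part in the levels of the 3 genes was not tested.

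In SgshKO the 4-month means were 2.73% of the 3-week means for Gpr165, 14.6% for Il7r and 13.8% for Mycl. From 4 to 8 months the SgshKO libraries overlapped for each gene; Mycl averaged 8.63 ± 4.01 CPM (SD, n = 7) at 8 months and 3.57 ± 0.904 CPM (n = 2) at 4 months. Within the 4 SgshKO libraries at 8 months with Ddx3y over Xist, as in all WT libraries of that age, Gpr165 was 1.33 to 4.09 CPM, Il7r 1.41 to 4.13 CPM and Mycl 5.46 to 15.2 CPM. In the 3 with Xist over Ddx3y they were 2.35 to 3.16, 3.16 to 4.24 and 3.85 to 10.3 CPM. No WT library of that age had Xist over Ddx3y, so the genotypes could be compared there only among libraries of the other kind. At 4 months 1 library of each genotype had Xist over Ddx3y and 1 the reverse, and both SgshKO libraries lay below both WT libraries.

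Per transcript length, Gpr165 had the highest group mean of the 3 in WT at every age. It held 307 ± 27.1 TPM (a length-scaled level, SD, n = 3) at 3 weeks, against 35.4 ± 1.26 TPM for Il7r and 35.7 ± 5.60 TPM for Mycl, which did not differ beyond their spread. At 8 months the WT order was Gpr165 at 110 ± 37.9, Mycl at 76.6 ± 14.3 and Il7r at 55.7 ± 11.2 TPM (n = 4), and each neighbour in that order overlapped the next. In SgshKO at 8 months the order was Mycl at 3.59 ± 1.86, Il7r at 1.49 ± 0.479 and Gpr165 at 1.18 ± 0.436 TPM (n = 7), again with each neighbour overlapping the next. By group mean on this scale, the gene highest in WT was the lowest of the 3 in SgshKO at 8 months.

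Markers of other cells were set beside these levels. Neutrophil markers summed to at most 7.68 CPM in any WT library, 3032 to 14948 CPM in SgshKO at 4 months and 437 to 5892 CPM in SgshKO at 8 months; all 12 were listed with counts in the SgshKO groups of those ages. The monocyte marker sum moved the same way, from at most 26.9 CPM in WT to 379 to 1475 CPM in SgshKO at 4 months. It was 73.2 to 505 CPM in SgshKO at 8 months. Most of the SgshKO sum at 4 months was Chil3 (0.722 CPM in WT and 819 CPM in SgshKO). Ccr2 went the other way (7.08 and 3.36 CPM), as did Vcan by less (0.903 and 0.760 CPM), while the rest of that list was higher. At 3 weeks, where the 3 genes also fell, neutrophil markers reached 31.5 CPM in SgshKO and 7.16 CPM in WT, and monocyte markers at most 15.2 CPM in either genotype. T, NK and innate lymphoid markers, whose cells carry Il7r, summed to 27.9 to 58.0 CPM in all 6 groups over the 17 listed. At 4 months 8 of them were at 0 in WT and 10 in SgshKO, with Cd2 and Cd3g among these in both. Most of the 4-month sum was Cd247 (16.4 CPM in WT and 17.6 CPM in SgshKO) and Il1rl1 (15.4 and 16.7 CPM). The sum therefore says little about the other members: Cd5 was 0.867 CPM in WT and 6.02 CPM in SgshKO, and Lck 0.485 and 0 CPM. The sum of border-associated macrophage markers was higher in SgshKO without overlap at each age. It was 83 to 109 against 55.1 to 76.0 CPM at 3 weeks and 71.4 to 124 against 9.57 to 10.5 CPM at 4 months. At 8 months it was 62.3 to 109 against 15.9 to 32.1 CPM. Most of the 4-month sum was Mrc1 (7.68 CPM in WT and 86.9 CPM in SgshKO). At that age Lyve1 (0.108 and 0.0860 CPM) was not higher in SgshKO, while the rest of that list was, with Clec10a and Pf4 at no more than 0.258 CPM. The endothelial marker sum was lower without overlap, at 32 to 38.1 against 55.0 to 71.7 CPM at 3 weeks, 16.1 to 17.4 against 49.2 to 59.6 CPM at 4 months, and 16.3 to 28.2 against 47.2 to 62.5 CPM at 8 months. Most of that sum was Pecam1 (49.0 CPM in WT and 9.26 CPM in SgshKO at 4 months), while Cldn5 and Ly6c1 were at 0 in both genotypes at 3 weeks. Not every member was lower: Flt1 was 1.01 CPM in WT and 5.67 CPM in SgshKO at 4 months. Cdh5 was 5.66 CPM in WT and 6.25 CPM in SgshKO at 3 weeks, and 4.28 and 1.79 CPM at 4 months. The dendritic-cell marker sum was lower in SgshKO without overlap at 4 months (438 to 473 against 786 to 840 CPM). It overlapped at 3 weeks (785 to 931 against 819 to 998 CPM) and at 8 months (486 to 656 against 516 to 815 CPM). Most of the 4-month sum was Fscn1 (791 CPM in WT and 440 CPM in SgshKO). Batf3 (10.5 and 4.57 CPM) and Itgae (7.22 and 4.12 CPM) had lower means too, and the rest higher ones of at most 2.08 CPM. Batf3 was 16.4 and 10.4 CPM at 3 weeks. The part of other cells in the results was not tested; in bulk samples, fewer cells of a type and less RNA per cell cannot be told apart.

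Of the other genes of the IL-7 receptor pathway, the 2 possible partner chains of Il7r were higher in SgshKO at 4 and 8 months. Il2rg, the common gamma chain, was 4.49 and 5.31 CPM in WT at 4 months against 38.4 and 40.8 CPM in SgshKO, and rose by 3.00 ± 0.35 on the log2 scale (edgeR, adjusted p = 8.85e-07). At 8 months Il2rg was 2.12 to 4.51 CPM in WT and 19.1 to 45.8 CPM in SgshKO, a rise of 3.23 ± 0.23 (adjusted p = 4.52e-11). At 3 weeks its difference was 0.41 ± 0.25 (adjusted p = 0.43). Crlf2, the partner in the TSLP receptor, rose by 0.74 ± 0.19 at 4 months (edgeR, adjusted p = 0.00855) and by 1.48 ± 0.12 at 8 months (adjusted p = 8.21e-10), when it held 37.6 to 58.8 CPM in WT and 104 to 165 CPM in SgshKO. At 4 months Crlf2 did not pass once WT replicate 1, WT replicate 2 or SgshKO replicate 2 was left out, with adjusted p of 0.0553, 0.0599 and 0.0782 by edgeR.

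Tslp, the ligand shared by Il7r and Crlf2, was scarce, with 19 to 27 counts per WT library and 0 to 7 per SgshKO library at 8 months; it fell by 3.42 ± 0.82 (edgeR, adjusted p = 0.00165). Il7, the other ligand, had at most 5 counts in any of the 22 age-series libraries and was not tested. Of the kinases, STAT5 factors and Bcl2 downstream of the receptor, those called at 8 months were Jak1, Stat5b and Bcl2: Jak1 fell by 0.32 ± 0.08 (adjusted p = 0.00248), Stat5b by 0.30 ± 0.08 (adjusted p = 0.00376) and the survival gene Bcl2 by 0.56 ± 0.21 (adjusted p = 0.0343), all by edgeR. Jak3 (0.09, adjusted p = 0.754) and Stat5a (0.19, adjusted p = 0.181) did not pass at 8 months, and none of these 5 passed at 3 weeks or 4 months. The Bcl2 call was lost in 3 of 9 other settings (adjusted p up to 0.181).

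Counted over the IL-7 receptor pathway without Il7r, 24 of 25 listed genes were tested. At 3 weeks 1 rose and 0 fell, at 4 months 3 rose and 2 fell, and at 8 months 5 rose and 11 fell. Over all genes 5.31% were called higher and 3.72% lower at 3 weeks, 10.3% and 9.26% at 4 months, and 21.6% and 18.9% at 8 months. At 8 months the largest called changes were in Tslp, Il2rg and Socs3, an inhibitor of cytokine signalling that fell by 1.70 ± 0.30 (edgeR, adjusted p = 7.75e-05) with overlapping groups. The median log2 difference of the pathway was -0.28 at 8 months, against 0.02 over all genes.

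Of the relatives of Mycl, neither Myc nor Max passed the test at any age. Myc measured 29.6 to 41.7 CPM in WT and 33.0 to 49.4 CPM in SgshKO at 3 weeks, and 54.7 to 136 CPM and 49.6 to 113 CPM at 8 months. Its log2 differences were 0.18 ± 0.27, -0.47 ± 0.36 and -0.05 ± 0.22 at the 3 ages (edgeR, adjusted p = 0.814, 0.396 and 0.894). Max, the obligate partner, differed by 0.17, 0.18 and 0.01, and the MAX-binding repressors Mxd1 and Mnt did not pass at any age either. Mycn had at most 6 counts in any library and was not tested. Of 12 tested genes of the MYC and MAX network other than Mycl, 1 rose and 2 fell at 3 weeks, and 1 rose and 3 fell at 4 and at 8 months. The shares called higher and lower over all genes were 5.31% and 3.72%, 10.3% and 9.26%, and 21.6% and 18.9% at the 3 ages. Mlxipl, a glucose-responsive member, fell by 0.56 ± 0.09 at 3 weeks (edgeR, adjusted p = 0.000108), and by 0.50 ± 0.12 and 0.62 ± 0.07 at the later ages (adjusted p = 0.00434 and 2.4e-07). Mxi1, a MAX-binding repressor, rose by 0.38 ± 0.09 at 3 weeks (adjusted p = 0.00437) and 0.49 ± 0.07 at 8 months (adjusted p = 5.34e-06).

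Of 24 growth genes that MYC proteins are known to bind and activate, 5 rose and 0 fell at 3 weeks, 3 and 0 at 4 months, and 8 and 4 at 8 months. Beside these stand 5.31%, 10.3% and 21.6% of all genes called higher and 3.72%, 9.26% and 18.9% called lower, so that the 3 rises at 4 months and the 4 falls at 8 months were near the share over all genes. Odc1, which makes polyamines, rose by 1.15 ± 0.26 at 3 weeks (edgeR, adjusted p = 0.00494) and by 1.35 ± 0.22 at 8 months (adjusted p = 2.28e-05). Ldha, lactate dehydrogenase A, rose by 0.64 ± 0.11 and 1.33 ± 0.10 at these ages (adjusted p = 0.00045 and 7.74e-11). At 8 months the list's median log2 difference was -0.0023, against 0.02 over all genes. The 3 called genes with the largest changes at 3 weeks were Odc1, Eif4a1 (0.68 ± 0.17, adjusted p = 0.00894) and Ldha.

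**Figure D2:**
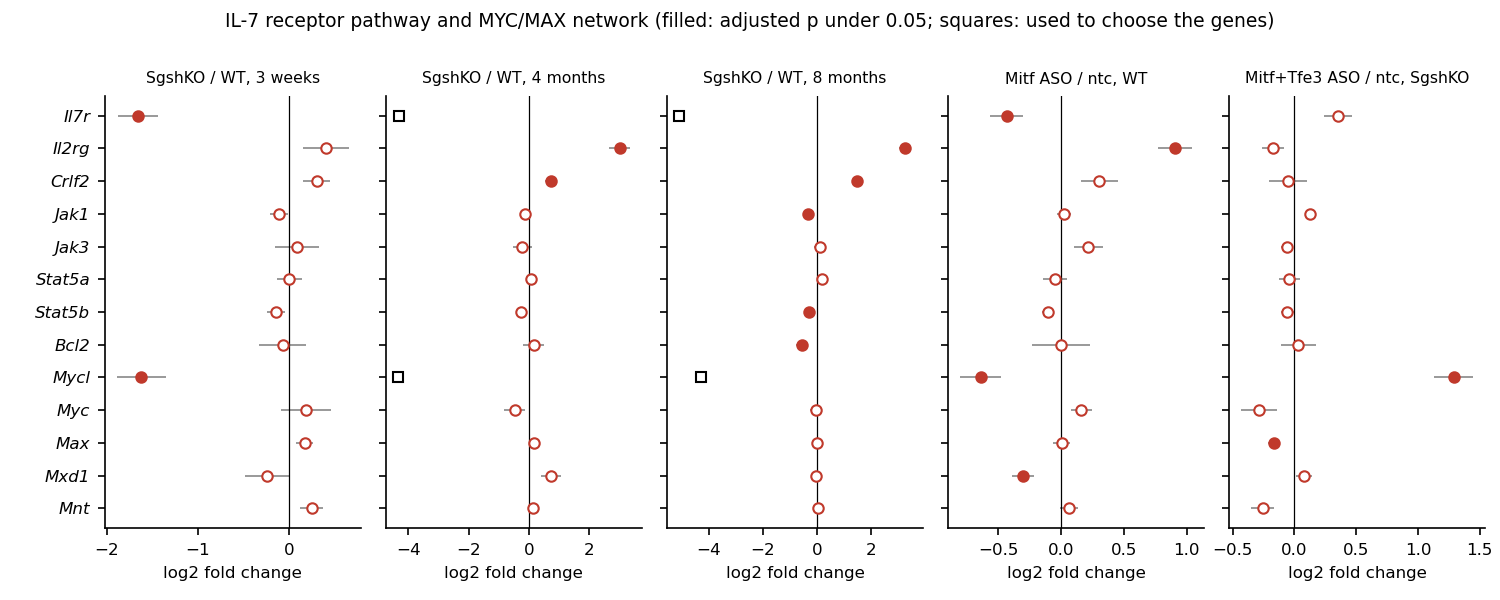
Log2 fold change (bars: SE) of the IL-7 receptor chains and kinases and of the MYC and MAX genes in 5 comparisons; filled symbols passed an adjusted p of 0.05 and open squares are values that chose the genes. Il2rg and Crlf2 lie to the right at 4 and 8 months, where Il7r lies far to the left, and Myc and Max lie near 0.

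Among 32 other G-protein-coupled receptors of microglia, set beside Gpr165, 5 rose and 8 fell at 3 weeks, 9 and 12 at 4 months, and 14 and 16 at 8 months, where all genes gave 5.31% and 3.72%, 10.3% and 9.26%, and 21.6% and 18.9%. At 3 weeks S1pr1, a sphingosine 1-phosphate receptor, rose by 1.92 ± 0.19 (edgeR, adjusted p = 1.89e-07). Lpar6, a lysophosphatidic acid receptor, fell by 1.08 ± 0.15 (adjusted p = 1.16e-05) and the oxysterol receptor Gpr183 by 1.01 ± 0.16 (adjusted p = 6.9e-05). At 8 months the largest called changes were in Fpr2, Fpr1 and Ptgir. Fpr2 and Fpr1, formyl peptide receptors that neutrophils also carry, had 0 counts in the 4 WT libraries and 8 to 297 and 5 to 97 counts per SgshKO library, so no fold is given. These were the libraries with 437 to 5892 CPM of neutrophil markers. At 3 weeks each of the 8 falls was smaller in estimate than that of Gpr165; the differences were not tested.

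In WT mice no difference between the control ASO and PBS was detectable for the 3 genes. Gpr165 measured 227, 415, 296 and 316 CPM after PBS and 241, 381, 209 and 362 CPM after ntc, in the order of grp 1 to 4. The log2 differences of ntc against PBS were -0.09 ± 0.10 for Gpr165, -0.07 ± 0.13 for Il7r and 0.09 ± 0.16 for Mycl, each with an adjusted p of 1 by edgeR with grp in the model. Of all 10277 genes edgeR called 0 (0%), with 415 at an unadjusted p under 0.05; DESeq2 called 2, and limma on the authors' batch-corrected values 1.

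The Mitf ASO lowered Gpr165 to 44.0% of ntc. It measured 99.7, 154, 106 and 165 CPM in grp 1 to 4, all below the lowest ntc library at 209 CPM. Within each grp the Mitf ASO library stood at 41.4%, 40.5%, 50.8% and 45.5% of its ntc library. Gpr165 fell by 1.18 ± 0.10 on the log2 scale (edgeR, adjusted p = 6.51e-07), place 9 from the lowest of 10277 genes. Of all genes 5.21% were called lower and 3.6% lay wholly below ntc. The call held in every fit without 1 library, in the authors' batch-corrected values and without the replicate block (-1.19, adjusted p = 0.00546).

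Il7r and Mycl moved the same way by less. After the Mitf ASO Il7r measured 33.9, 38.2, 60.3 and 59.9 CPM, against 58.6, 61.2, 71.3 and 62.2 CPM after ntc. Mycl measured 26.2, 27.7, 57.8 and 35.2 CPM, against 54.0, 36.8, 83.9 and 49.3 CPM. The Mitf ASO library was the lower in 4 of 4 grp numbers for both genes, at 57.9% to 96.3% of ntc for Il7r and 48.5% to 75.3% for Mycl, while the groups as a whole overlapped. Il7r fell by 0.43 ± 0.13 (edgeR, adjusted p = 0.0395) and Mycl by 0.64 ± 0.16 (adjusted p = 0.0179). Both calls were fragile: without the replicate block the adjusted p was 0.404 for Il7r and 0.587 for Mycl, and with the batch-corrected values it was 0.123 for Il7r.

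Leaving out ntc replicate 1, 2 or 4 or Mitf ASO replicate 1, 2 or 3 took the adjusted p of Il7r to between 0.0588 and 0.177. Leaving out ntc replicate 1 or 4 or Mitf ASO replicate 1, 2 or 3 took that of Mycl to between 0.0652 and 0.0992. The grp number set much of the level of Mycl: over the 5 treatments it was 57.8 to 116 CPM in grp 3, and 26.2 to 54.0 CPM in grp 1, 2 and 4.

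The other ASOs gave smaller differences. Against the same ntc libraries, the Tfeb ASO left Gpr165 at 80.9% of ntc (log2 difference -0.29 ± 0.10, adjusted p = 0.196 by edgeR) and the Tfe3 ASO at 82.6% (-0.23 ± 0.10, adjusted p = 0.245). Gpr165 was 206, 313, 187 and 260 CPM after the Tfeb ASO and 223, 273, 232 and 257 CPM after the Tfe3 ASO. It was below its ntc library in 4 of 4 grp numbers for Tfeb and 3 of 4 for Tfe3. Il7r differed by 0.04 ± 0.13 and -0.09 ± 0.13 and Mycl by -0.12 ± 0.16 and -0.19 ± 0.16, with adjusted p between 0.598 and 0.913. Few genes were called with these ASOs, 0.778% for Tfeb and 2.16% for Tfe3.

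The ASOs lowered their own targets by unlike amounts against ntc: log2 fold changes were -4.81 for Mitf, -3.24 for Tfeb and -2.38 for Tfe3. The part of this in the differences between the ASOs was not tested. Set directly against each other, the ASOs differed in their effect on Gpr165. It was lower after the Mitf ASO than after the Tfe3 ASO by 0.94 ± 0.10 (edgeR, adjusted p = 1.21e-05) and lower than after the Tfeb ASO by 0.88 ± 0.10 (adjusted p = 8.47e-05), in 4 of 4 grp numbers each and with no overlap. Of all genes 1.13% and 1.86% were called lower in these contrasts, and 2.24% and 1.91% lay wholly lower. Without the replicate block these adjusted p were 0.05, to the digits written, and 0.123. For Il7r the contrasts were -0.34 ± 0.13 (adjusted p = 0.182) against Tfe3 and -0.47 ± 0.13 (adjusted p = 0.0523) against Tfeb, the latter called by DESeq2 (adjusted p = 0.00856). For Mycl they were -0.45 ± 0.16 (adjusted p = 0.168) and -0.52 ± 0.17 (adjusted p = 0.0942). The Tfeb and Tfe3 ASOs did not differ detectably for any of the 3 genes (-0.06, 0.13 and 0.07 for Gpr165, Il7r and Mycl, adjusted p of at least 0.628); 1.62% of all genes were called.

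**Figure D3:**
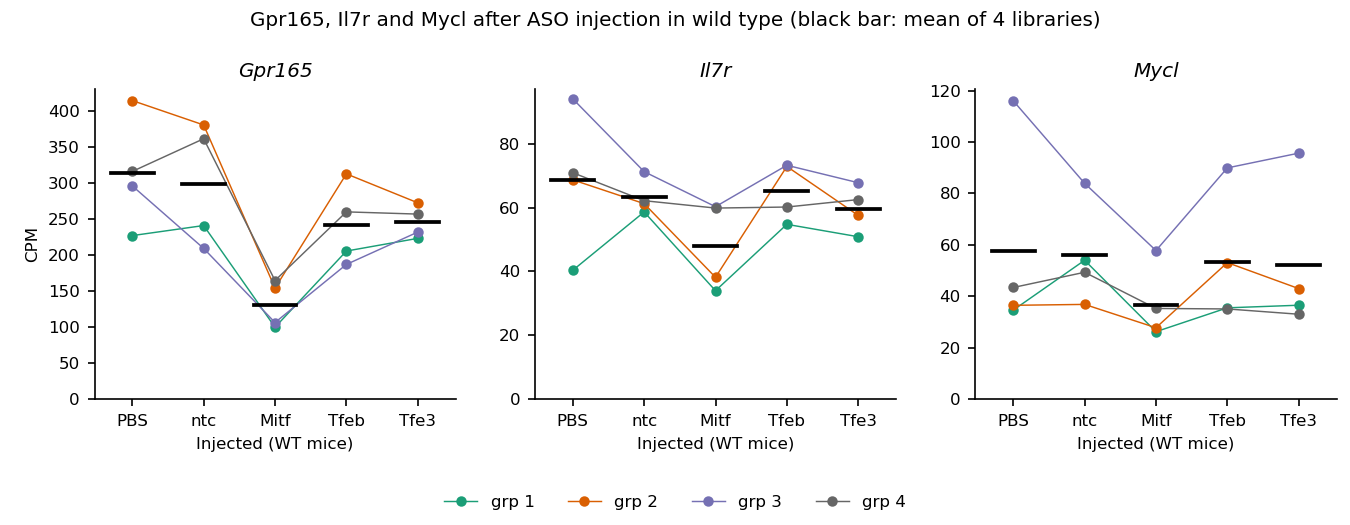
CPM of each gene in the 20 WT ASO libraries by treatment, with lines joining libraries of the same grp number and black bars at the mean of 4. Gpr165 drops at the Mitf ASO in every grp, and Mycl is highest in grp 3 under each treatment.

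Among the partner genes, Il2rg again moved against Il7r under the Mitf ASO. It measured 5.42 to 8.49 CPM after ntc and 9.56 to 13.9 CPM after the Mitf ASO, a rise of 0.91 ± 0.14 (edgeR, adjusted p = 0.000337). Crlf2 (0.31 ± 0.15, adjusted p = 0.194), Jak1, Jak3, Stat5a, Stat5b, Bcl2, Myc, Max and Mnt did not pass, and Mxd1 fell by 0.30 ± 0.08 (adjusted p = 0.0268), a call lost in 6 of the 8 fits without 1 library. Of 21 tested IL-7 receptor pathway genes 2 rose (Il2rg and Bax) and 0 fell, against 5.77% of all genes called higher. None of the 12 neutrophil markers is listed in this table. The microglial marker sum was lower without overlap after the Mitf ASO (63608 to 66274 against 67622 to 70695 CPM after ntc), as was Cd79b, the only B-cell marker listed (15.9 to 20.1 against 20.6 to 29.6 CPM; log2 difference -0.47 ± 0.09, adjusted p = 0.00254). The part of either in the fall of Gpr165 was not tested. Of 27 G-protein-coupled receptors 2 rose and 9 fell, among them S1pr2 (-0.48 ± 0.13, adjusted p = 0.0237) and Lpar6 (-0.45 ± 0.07, adjusted p = 0.000635). Of 23 growth genes 6 rose and 0 fell, Nme1 by 0.38 ± 0.10 (adjusted p = 0.0253). Beside both counts stand 5.77% of all genes called higher and 5.21% called lower, so that the 2 receptor rises were near the share over all genes.

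The Mitf RNA that this ASO removed was itself higher in SgshKO, by 0.47 ± 0.11, 0.61 ± 0.14 and 0.84 ± 0.09 at 3 weeks, 4 months and 8 months (edgeR, adjusted p = 0.00582, 0.00344 and 5.7e-08). Gpr165 was thus lower both where Mitf was higher by genotype and where Mitf was removed in WT. The 2 settings differ in genotype, age and library set, and their effects were not compared by a test.

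In SgshKO mice the Mitf and Tfe3 ASOs together raised Mycl, the direction opposite to that of the Mitf ASO in WT; the 2 effects were not compared by a test. Mycl was 3.68, 2.33, 3.14 and 2.89 CPM in grp 1 and 2.35, 2.10, 2.59 and 2.90 CPM in grp 2 after ntc. After the combination it was 12.4, 5.75, 6.39 and 6.04 CPM in grp 1 and 5.20, 5.86, 6.26 and 6.14 CPM in grp 2. The groups did not overlap, which 0.406% of all genes showed in the higher direction, and the treated mean was 246% of the ntc mean. Mycl rose by 1.29 ± 0.16 on the log2 scale (edgeR with grp in the model, adjusted p = 0.000106), place 3 from the highest of 10589 genes, of which 4.84% were called higher. It rose by 1.34 ± 0.24 within grp 1 (adjusted p = 0.00367) and by 1.23 ± 0.23 within grp 2 (adjusted p = 0.00963). Without the library at 12.4 CPM the rise was 1.13. Treated Mycl stayed at 5.20 to 12.4 CPM, below the 26.2 CPM of the lowest WT ASO library. It lay within the 3.85 to 15.2 CPM of the SgshKO age-series libraries at 8 months. The counts of these sets were filtered separately, so these levels are set side by side only.

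Gpr165 and Il7r did not pass in this comparison. Il7r measured 3.37 to 5.73 CPM (median 4.70) after ntc and 4.24 to 7.08 CPM after the combination, a difference of 0.35 ± 0.12 (edgeR, adjusted p = 0.0628), which DESeq2 called (adjusted p = 0.0417). On the authors' batch-corrected values the Il7r difference was 0.74 (limma, adjusted p = 0.0127). Gpr165 differed by 0.34 ± 0.12 (edgeR, adjusted p = 0.0838; 0.0468 by DESeq2), and is given by grp number. In grp 1 it was 12.1 to 13.3 CPM after ntc and 10.8 to 14.6 CPM after the combination (log2 difference -0.02 ± 0.13, adjusted p = 0.933). In grp 2 it was 8.34 to 11.8 and 13.5 to 18.3 CPM with no overlap (0.68 ± 0.12, adjusted p = 0.0081). The difference between the grp numbers was 0.71 ± 0.18 (adjusted p = 0.125), so it was not shown that the effect differed. Leaving out combination grp 1 replicate 1 brought Gpr165 to an adjusted p of 0.0475 and Il7r to 0.0418, and leaving out ntc grp 1 replicate 3 brought Il7r to 0.0214.

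**Figure D4:**
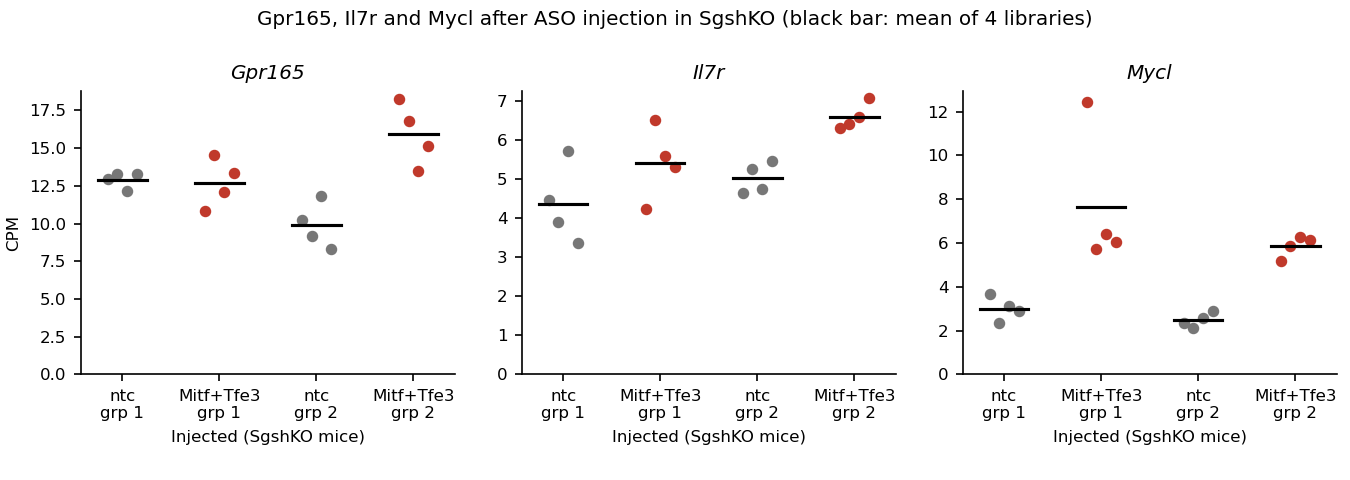
CPM of each gene in the 16 SgshKO ASO libraries, by grp number and treatment, with black bars at the mean of 4. Mycl is higher after the Mitf and Tfe3 ASOs in both grp numbers, and Gpr165 in grp 2.

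Beside these, Il2rg (-0.17 ± 0.09, adjusted p = 0.223), Crlf2 (-0.05 ± 0.16, adjusted p = 0.866) and Myc (-0.29 ± 0.14, adjusted p = 0.225) did not pass, and Max fell by 0.17 ± 0.05 (edgeR, adjusted p = 0.0344; lost in 5 of 8 other settings). Of 22 IL-7 receptor pathway genes 1 rose and 1 fell. Of 24 growth genes 1 rose and 1 fell, and of 27 G-protein-coupled receptors 2 rose and 9 fell, where 4.84% of all genes were called higher and 4.5% lower. Ccrl2, a chemerin-binding receptor, fell by 0.72 ± 0.07 (adjusted p = 9.15e-06). Neutrophil markers, 6 of 12 listed, summed to 1.03 to 564 CPM after ntc and 0.996 to 358 CPM after the combination.

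**Figure D5:**
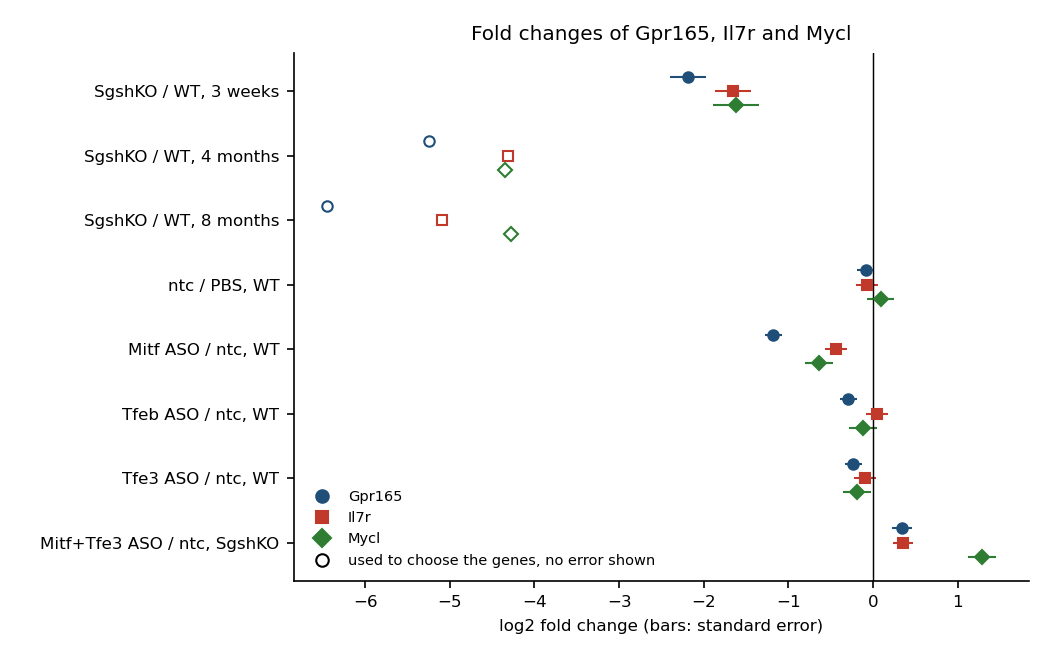
Log2 fold change of Gpr165, Il7r and Mycl in 8 comparisons, with SE bars for tested values and open symbols, without bars, for the 4-month and 8-month values that chose the genes. All 3 lie left of 0 for genotype and for the Mitf ASO in WT, and Mycl lies at 1.29 for the combination in SgshKO.

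Across the 22 age-series libraries the 3 genes followed each other: Pearson's r of log2 CPM was 0.946 for Gpr165 with Il7r, 0.878 for Gpr165 with Mycl and 0.955 for Il7r with Mycl. The libraries share genotype and age, which chose the genes, so these values are descriptions. Over 12132 genes with a mean of at least 1 CPM, those most alike Gpr165 were Bmp1 (r = 0.981), Itga9 (0.974), Zcchc14 (0.972), Ppm1l (0.971) and Tlr5 (0.968). Those most alike Il7r were St3gal6 (0.977), Slco2b1 (0.972), Slc25a37 (0.971), Pecam1 (0.969) and Chst7 (0.965). For Mycl they were Prkce (0.966), Trim2 (0.965), Vsir (0.964), Il7r (0.955) and 9130011E15Rik (0.954). Spearman's rho for these 15 pairs ran from 0.85 to 0.958.

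In the 20 WT ASO libraries, with the mean of each grp taken out, the same pairs gave r = 0.781, 0.754 and 0.783. Treatment was not taken out, so these values include the differences between the ASOs and are descriptions too. The genes most alike Gpr165 there were Slco2b1 (r = 0.96), Ppm1l (0.954), Upk1b (0.945), Ifngr1 (0.943) and Serpinf1 (0.938), so that Ppm1l stood among the nearest 5 in both sets. For Il7r they were Amigo3 (0.884), Pik3cg (0.851), Serpinf1 (0.846), Fam72a (0.845) and Lipe (0.839). For Mycl they were Efnb2 (0.874), Rcan1 (0.863), Fam43a (0.848), Fam72a (0.844) and Fbxl6 (0.836). Efnb2 was also the gene placed between Il7r and Mycl by its fold at 8 months. Il7r ranked 191 of 10271 genes in likeness to Gpr165 in these libraries, and 46 of 12132 in the age series. Mycl ranked 260 and 290 in the same lists.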

How the data were processed

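Each library is sorted microglia from mouse forebrain, dUTP-stranded and sequenced single-end, per the labels' protocols. The submitters' processing notes name STAR 2.5.3a, kallisto 0.44.0, HOMER 4.11, DESeq2 1.36.0, R 4.2.3 and the build mm10, without their roles. The authors deposited raw counts per gene for 3 sets (24940, 10277 and 10589 genes), TPM for the age series, and for the ASO sets a normalised, batch-corrected signal whose method is not given in the sources used here. All ASO genes listed had a mean of at least 7.05 (WT) or 39.25 (SgshKO) counts. Raw counts of each set were fitted in a single model with edgeR 4.0.16 (R 4.3.3): TMM scaling, filterByExpr with a minimum count of 10, quasi-likelihood F test, Benjamini-Hochberg adjustment over all genes tested (14309, 10277 and 10589), threshold 0.05. The model held the group, plus grp for the ASO sets. 3 of 3 genes passed the filter in each set. SE is the log2 fold change divided by the square root of F; CPM uses TMM library sizes. PBS replicate 4 is grp 4 in its title and grp 3 in its column name, and the title was used.

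Named genes are the 3 members, the 14 pathway partners whatever their change, the genes just outside the choice, up to 3 called genes per pathway list with the largest change, the 5 most alike genes, and the ASO targets. Some list genes that this rule would name are not reported here. The members and gene lists were chosen with earlier results of these data known. 9 comparisons were tested for the 3 genes, 27 tests in all. Alternatives, run with DESeq2 1.42.0 and limma 3.58.1 among others, are summarised in the closing section. On simulated counts the test recovered 58% of 100 genes changed 2-fold (log2 of 1) and 80% changed by log2 of 2 at 3 weeks, over 14309 genes. Promoter sequences are RefSeq's, and 3 of 3 genes matched by symbol.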

Additional observations from a re-analysis of the deposited data

Results flagged for a closer look

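3 of 30 gene and group combinations with 4 to 10 libraries held a library far from the rest by Dixon's test at the 95% level, which chance alone flags in about 1 of 20 groups. All 3 were Mycl. PBS replicate 3 (grp 3) held 116 CPM, with the next PBS library at 43.4 CPM. Tfe3 ASO replicate 3 (grp 3) held 95.7 CPM, with the next at 43.0 CPM. Combination grp 1 replicate 1 in SgshKO held 12.4 CPM, with the next at 6.39 CPM.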

How the results depend on the processing

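All 3 falls at 3 weeks, the Gpr165 fall with the Mitf ASO against ntc, and the Mycl rise in SgshKO kept direction and call in every setting run. Over the values of the 3 genes and the counts of all genes called, 577 of 684 kept their side of the threshold and their size class, and 13 reversed, none of them a call. log2(TPM + 1) gave smaller descriptive folds: -4.74, -3.72 and -3.79 for Gpr165, Il7r and Mycl at 4 months, and -5.64 and -4.52 for Gpr165 and Il7r at 8 months. The Ddx3y minus Xist covariate could not be run in the ASO sets, where Xist is not analysed here.

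The replicate numbers of the age series did not pair the libraries (r of -0.171 to 0.115 over 9 pairs); with the replicate block Gpr165 was -2.13, Il7r -1.65 and Mycl -1.62 at 3 weeks, and 1135 genes were called against 1292. Same-grp WT ASO libraries deviated together in 38 of 40 pairs (r up to 0.640). No replicate block left 211 genes called of 1128 for the Mitf ASO, 9 of 80 for Tfeb, 29 of 222 for Tfe3, 100 of 386 for Mitf against Tfe3, 33 of 363 for Mitf against Tfeb and 7 of 167 for Tfeb against Tfe3. It gave -0.40 for Il7r and -0.61 for Mycl with the Mitf ASO, -0.91 for Gpr165 against Tfe3 and -0.88 against Tfeb, none passing, and -0.047 for Mycl with ntc against PBS. In SgshKO, where 5 of 8 pairs had r over 0.1, the replicate block changed no call (Mycl 1.26).

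DESeq2 called 2 genes for ntc against PBS, 213 for Tfeb, 403 for Tfe3, 573 for Mitf against Tfeb and 429 for Tfeb against Tfe3, and gave Il7r -0.47 against Tfeb, and 0.35 (Gpr165) and 0.36 (Il7r) in SgshKO, all 3 passing. Batch-corrected values called 1 gene for ntc, 145 for Tfeb and 284 for Tfeb against Tfe3, and gave Il7r -0.39 with the Mitf ASO (not passing) and 0.74 in SgshKO (passing). PBS replicate 4 in grp 3 gave Mycl -0.64 with the Mitf ASO (adjusted p = 0.0766). In SgshKO 452 of 988 genes were called with no grp term; in settings added after the data were seen, 192 were called in grp 1 alone and 430 in grp 2 alone, with Gpr165 at -0.0075 and 0.67.

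Without 1 library, called genes ran from 1441 to 2708 at 4 months, 621 to 970 for Mitf, 24 to 63 for Tfeb, 79 to 140 for Tfe3, 218 to 303 for Mitf against Tfe3, 118 to 458 for Mitf against Tfeb, 48 to 568 for Tfeb against Tfe3 and 680 to 1131 in SgshKO. The 3 genes ran, in such fits, from -5.77 to -4.95 (Gpr165), -4.47 to -4.10 (Il7r) and -4.71 to -4.17 (Mycl) at 4 months. With ntc against PBS they ran from -0.15 to 0.0032, -0.21 to 0.032 and -0.073 to 0.24, and with the Mitf ASO Il7r ran from -0.56 to -0.32 and Mycl from -0.76 to -0.47. With Tfeb Il7r ran from -0.059 to 0.14 and Mycl from -0.30 to 0.036; with Tfe3 Il7r ran from -0.14 to 0.021. Il7r ran from -0.59 to -0.36 for Mitf against Tfeb, and Mycl from -0.13 to 0.16 for Tfeb against Tfe3. In SgshKO Gpr165 ran from 0.27 to 0.40 and Il7r from 0.31 to 0.42. Pim1, a STAT5 target in the pathway list, ran from -1.48 to 0.24 at 8 months, reversing without WT replicate 4.
In SgshKO at 4 and 8 months Gpr165 rests on 23 to 67 counts per library.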
